A study of Homo sapiens with 6 samples.

Results

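The miRNAs described here are hsa-miR-320a, hsa-miR-320b, hsa-miR-320c, hsa-miR-320d, hsa-miR-320e and hsa-miR-484, 6 of the 471 names in a table of miRNA read counts from extracellular vesicles (EVs). They were chosen by name, under a heading of precursors that are capped or made without Drosha. The route that made each member was not tested. All 6 had reads, and 5 of them were among the 105 miRNAs that passed the filter on low counts; miR-320e did not pass. The comparison asked whether each member differed between EVs of soft and stiff cultures, and whether miR-484, with an unrelated sequence, moved with the miR-320 family.

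The EVs were released by spheroids of Cal27, an established line from a human oral squamous carcinoma. EV_soft samples came from cultures on Matrigel, a basement membrane extract, at 3 mg/mL, and EV_stiff samples from cultures at 12 mg/mL. There were 3 libraries in each group, and the media of both groups were taken on day 14. Both groups shared the cell line, serum depleted of EVs by ultracentrifugation, and capture of EVs in an electric field at the tip of a glass pipette. The study describes replicates as separate isolations from repeated culture experiments. Higher Matrigel concentration brings more matrix protein as well as more stiffness, so those features cannot be told apart in this design, and the counts come from 1 cell line.

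Most miRNAs are cut from a long primary transcript in the nucleus by Drosha, exported as a hairpin, and cut again by Dicer to give the mature strand that Argonaute carries. The hairpin of miR-320a is instead transcribed directly as a short RNA with a 5′ cap, and miR-484 is also made without Drosha, from a hairpin at the start of a transcript. A mature miRNA finds its targets mainly through its seed, bases 2 to 8, so miRNAs with the same seed can share targets whatever their origin. Counts of mature miRNAs do not show which route made them.

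The mature sequences are shown because the members divide by them. They are from RefSeq for GRCh38.p14, written 5′ to 3′, and the capitals mark the seed, bases 2 to 8.
hsa-miR-320b: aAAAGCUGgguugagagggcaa
hsa-miR-320c: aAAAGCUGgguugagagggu
hsa-miR-320d: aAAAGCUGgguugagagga
hsa-miR-320e: aAAGCUGGguugagaagg
hsa-miR-484: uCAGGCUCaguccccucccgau

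miR-320b to miR-320d had the same seed and the same first 18 bases, and differed at the 3′ end. Counted from 1 at the 5′ end of miR-320b, miR-320c carries C20U and ends 2 bases earlier, and miR-320d carries G19A and ends 3 bases earlier. The sequence of miR-320e starts at base 2 of miR-320b and carries G17A, so that its seed is bases 3 to 9 of miR-320b. A run of 15 bases was common to miR-320b to miR-320e, whereas miR-484 had at most 3 bases in a row in common with any of them. GC content was 63.6% in miR-484 and between 47.4% and 50.0% in these 4 sequences. How reads that fit several members were counted is not given in the sources used here, so the division of reads among the miR-320 rows is uncertain.

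The hairpins of miR-320b and miR-484 place the mature strand on opposite arms. In the lines below, capitals mark the mature strand. The MIR320B1 hairpin, at chr1:116671746-116671817 on the plus strand, holds miR-320b at bases 42 to 63 of 72. The MIR484 hairpin, at chr16:15643294-15643372 on the plus strand, holds miR-484 at bases 8 to 29 of 79.
MIR320B1: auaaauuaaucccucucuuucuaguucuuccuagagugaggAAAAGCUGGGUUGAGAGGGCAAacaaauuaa
MIR484: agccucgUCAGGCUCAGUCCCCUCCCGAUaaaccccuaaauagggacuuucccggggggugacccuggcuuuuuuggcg

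All 7 hairpins of miR-320b to miR-320e carried the mature strand in the 3′ part, and the hairpin of miR-484 carried it in the 5′ part. A count for miR-320b, miR-320c or miR-320d adds up 2 loci.

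The tested miR-320 members took a larger share of the miRNA reads in EV_stiff than in EV_soft, and miR-484 took a similar share in both. Their log2 fold changes ran from 0.61 to 0.93, and differences in gain among them were not detected, with a test of 3 libraries against 3 that leaves shifts of up to 0.67 within its widest interval. The level of miR-484 was low and variable, so that neither no change nor a change as large as that of the family could be set aside. These directions hold within the miRNA reads of a library, since the read counts themselves overlapped between the groups for every tested miR-320 member.

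The libraries held 39211 to 66345 miRNA reads in EV_soft and 28688 to 30685 in EV_stiff, so totals of miRNA reads did not overlap between the groups. The study describes adjusting the libraries to equal expected read numbers. Whether the totals differed through sequencing depth or through the miRNA part of each library was not tested. Levels are given as CPM, reads per 1000000 reads of a library, after TMM normalization, a scaling that sets the bulk of miRNAs level between libraries, and 3 counts, the limit that a count of 0 allows, correspond to 44.8 to 108 CPM. A miRNA was called when its log2 fold change in edgeR's quasi-likelihood test was above 0.58 in size and its Benjamini-Hochberg adjusted p was at most 0.05. All 8 markers listed for squamous epithelium were in the table, led by miR-205-5p with 923 to 2078 reads per library. Of 8 listed miRNAs of blood and serum 6 were in the table, and their summed level was 3224 to 5892 CPM in EV_soft and 6828 to 9560 CPM in EV_stiff, with 2 of them tested and 1, the liver miRNA miR-122-5p, called higher. The other tested one, miR-486-5p, a miRNA of red blood cells, had 8 to 55 reads per library and a log2 fold change of 0.10 (SE 0.68, not called). miR-451a, also of red blood cells, had 24 reads in all, miR-142-5p 3 reads, and miR-223-3p and miR-142-3p 1 read each, while miR-144-3p and miR-150-5p were not in the table. The summed squamous list was at 62963 to 72752 CPM in EV_soft and 54391 to 55732 CPM in EV_stiff. Of its 7 tested members 3 were called, miR-200a-3p, miR-200b-3p and miR-200c-3p of the miR-200 family, all lower, where 7.62% of the tested miRNAs were called lower. Its members did not share a direction. The log2 fold changes of miR-205-5p (0.20, SE 0.10) and miR-203a-3p (1.21, SE 0.55) were above 0. Those of miR-429 (-0.76) and miR-31-5p (-0.80) were below 0, and none of them was called. The CPM of miR-205-5p and miR-203a-3p were higher in each EV_stiff library than in each EV_soft library, which held for 22.9% of the tested miRNAs. Those of miR-200a-3p, miR-200b-3p, miR-200c-3p and miR-429 were lower in each EV_stiff library than in each EV_soft library, and those of miR-31-5p overlapped. The share of tested miRNAs that were lower without overlap was not counted. The summed stromal list was at 98.6 to 224 CPM in EV_soft and 66.6 to 360 CPM in EV_stiff. The part of these lists in the results for miR-320 was not tested.

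**Figure D1:**
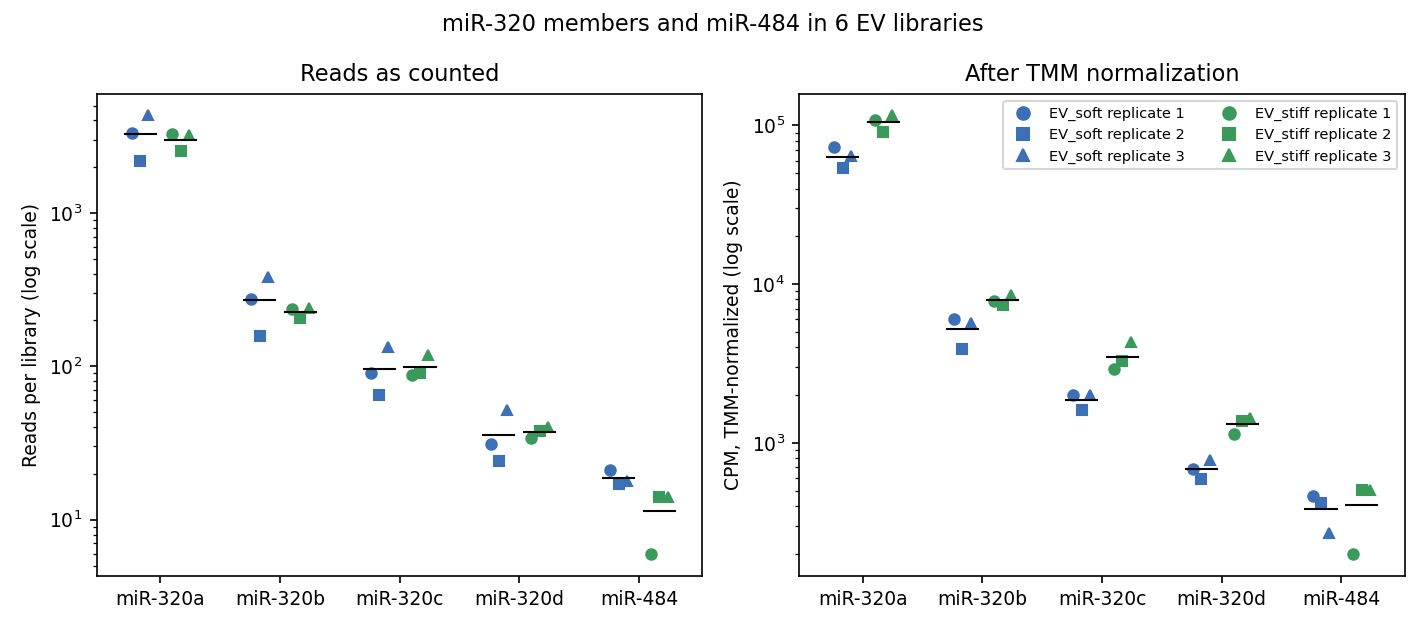
Reads per library (left, log scale) and TMM-normalized CPM (right, log scale) of the 5 tested members, with 1 point per library, symbols for replicate numbers and a bar at the mean of 3 libraries. On the CPM scale every EV_stiff point of miR-320a to miR-320d lies above every EV_soft point, while on the read scale the groups overlap and miR-484 overlaps on the CPM scale.

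miR-320a, the most counted member, was at 72708, 53866 and 64370 CPM in EV_soft replicates 1, 2 and 3 and at 108583, 91363 and 115646 CPM in EV_stiff replicates 1, 2 and 3. The lowest EV_stiff library was above the highest EV_soft library. The means were 63648 ± 9442 CPM in EV_soft and 105197 ± 12491 CPM in EV_stiff (SD, n = 3 each). By reads it ranked between 3 and 5 in the EV_soft libraries and 2 in each EV_stiff library, with 5.57% to 7.22% of reads in EV_soft and 8.86% to 10.8% in EV_stiff. Its log2 fold change was 0.72 (SE 0.13, 95% confidence interval 0.44 to 1.01) with an adjusted p of 0.00295 in edgeR's quasi-likelihood test with Benjamini-Hochberg adjustment.

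By the rule for calls miR-320a to miR-320d were all called higher in EV_stiff, 4 of the 4 tested miR-320 members, where 10.5% of the 105 tested miRNAs were called higher and 18.1% were called in either direction. All 4 also had CPM that did not overlap between the groups, which held for 22.9% of the tested miRNAs in that direction. These percentages include the 4 members themselves. How reads that fit several of these rows were counted is not given, so the 4 calls may not be separate observations. The median log2 fold change was 0.81 for these 4 members, 0.72 for the 5 tested members with miR-484 included, and -0.04 for all tested miRNAs, of which 48 were above 0.

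miR-320b had 5999, 3895 and 5673 CPM in EV_soft and 7861, 7404 and 8580 CPM in EV_stiff. The groups did not overlap, and EV_soft replicate 2 was the lowest of all 6 libraries. The log2 fold change was 0.61 (SE 0.17, 95% confidence interval 0.24 to 0.98), just above the limit of 0.58, with an adjusted p of 0.0226 in edgeR's quasi-likelihood test. The call was lost without EV_soft replicate 2, at 0.45 (adjusted p = 0.00773), without EV_stiff replicate 1, at 0.60 (adjusted p = 0.0760), and without EV_stiff replicate 3, at 0.56 (adjusted p = 0.0790). With library size as the only scaling the log2 fold change was 0.54 with an adjusted p of 0.0383, short of the limit on size, and without a filter on low counts it was 0.54 with an adjusted p of 0.0922.

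miR-320c, with the same seed as miR-320b, had 2000, 1602 and 2000 CPM in EV_soft and 2931, 3271 and 4290 CPM in EV_stiff. EV_stiff replicate 3 stood highest, and the lowest EV_stiff library was above all of EV_soft. The log2 fold change was 0.90 (SE 0.20, 95% confidence interval 0.44 to 1.35) with an adjusted p of 0.00975 in edgeR's quasi-likelihood test. Leaving out each library in turn kept the call, with log2 fold changes from 0.74 to 0.99.

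miR-320d was the least counted of the tested miR-320 members, with 31, 24 and 52 reads in EV_soft and 34, 38 and 40 reads in EV_stiff. After scaling these were 681, 592 and 776 CPM in EV_soft and 1132, 1366 and 1442 CPM in EV_stiff, again without overlap. Its log2 fold change of 0.93 (SE 0.25, 95% confidence interval 0.36 to 1.49) was the largest among the members and had an adjusted p of 0.0226 in edgeR's quasi-likelihood test. The call was lost on adjusted p without EV_soft replicate 1 (0.0731), without EV_soft replicate 2 (0.0518) and without EV_stiff replicate 3 (0.0708), with log2 fold changes of 0.91, 0.84 and 0.87. It was also lost without a filter on low counts, at 0.85 (adjusted p = 0.140).

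miR-320e had 4 reads in EV_soft replicate 3, 3 reads in EV_stiff replicate 2 and 0 reads in the other 4 libraries. No difference was detectable at these counts, and a count of 0 allows 3 reads. The rows named after miR-320 hairpins in place of a mature strand were as sparse, with 2 reads for hsa-mir-320a, 2 for hsa-mir-320b-1, 3 for hsa-mir-320b-2 and 0 for hsa-mir-320c-2 over all 6 libraries.

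Since reads may have been divided among near-identical rows, the miR-320 reads were also summed. The sum was 3704, 2432 and 4882 reads in EV_soft and 3618, 2880 and 3605 reads in EV_stiff. As shares of all miRNA reads these were 8.08%, 6.20% and 7.36% in EV_soft and 11.8%, 10.04% and 12.1% in EV_stiff, so the share in each EV_stiff library was above that in each EV_soft library while the read counts overlapped. With the 5 rows replaced by their sum, the log2 fold change was 0.75 (SE 0.13, 95% confidence interval 0.46 to 1.04), with an adjusted p of 0.00351 in edgeR's quasi-likelihood test. In that fit 7.84% of 102 tested rows were called higher in EV_stiff.

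The share of miR-320 reads counted for each member depends on how reads that fit several members were counted, which is not given. miR-320a made up 88.3% to 89.8% of miR-320 reads in EV_soft and 88.3% to 90.1% in EV_stiff. miR-320b made up 6.50% to 7.78% and 6.52% to 7.15%, miR-320c 2.46% to 2.74% and 2.43% to 3.30%, and miR-320d 0.837% to 1.07% and 0.940% to 1.32%. The ranges overlapped for each of these members, although the totals of miRNA reads did not.

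Ratios within a library do not depend on how libraries are scaled. On the log2 scale the ratio of miR-320b to miR-320a differed by -0.09, EV_stiff minus EV_soft (exact 90% interval -0.28 to 0.16, exact two-sided permutation p = 0.5). The ratio of miR-320c to miR-320a differed by 0.16 (exact 90% interval -0.20 to 0.43, exact permutation p = 0.4), and that of miR-320d to miR-320a by 0.21 (exact 90% interval -0.20 to 0.67, exact permutation p = 0.4). After adjustment over the 3 ratios each exact permutation p was 0.5, where 3 libraries against 3 cannot give a p below 0.1. A change in the proportions of miR-320 members was thus not detected, with shifts of up to 0.67 log2 units left within the widest interval. These proportions, too, depend on how reads that fit several members were counted.

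**Figure D2:**
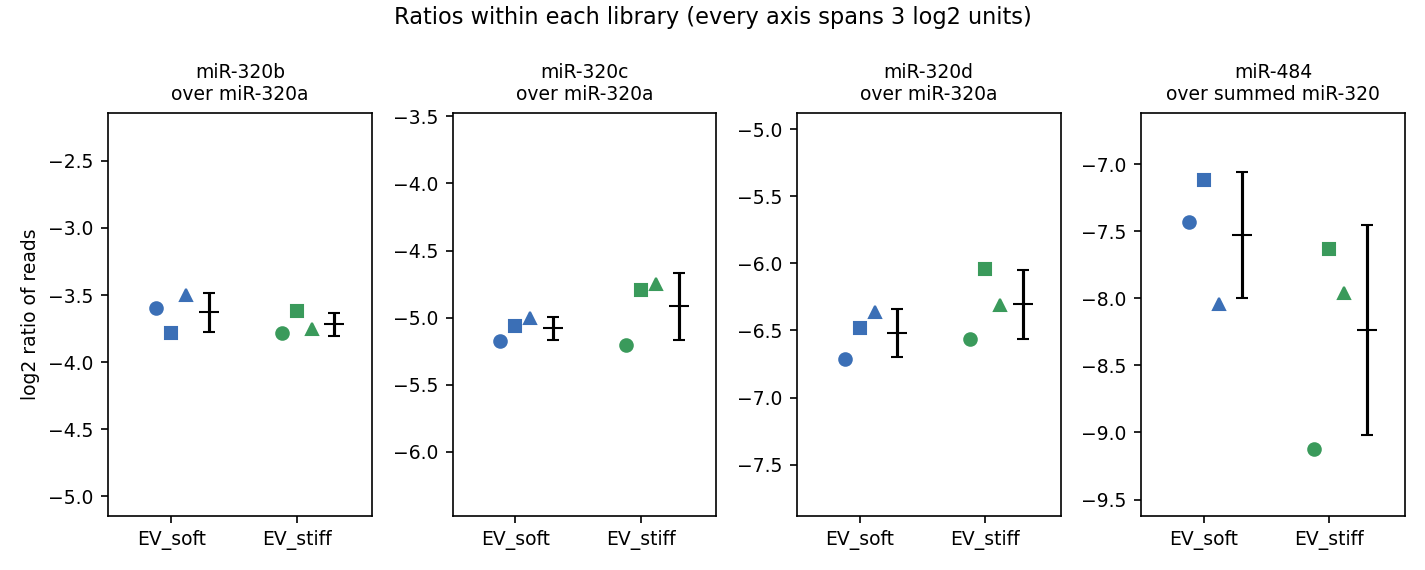
Log2 ratio of reads within each library for miR-320b to miR-320d over miR-320a and for miR-484 over the summed miR-320 reads, with 1 point per library, circles, squares and triangles for replicates 1, 2 and 3, and the mean ± SD of 3 libraries beside them; every axis spans 3 log2 units. The groups overlap in all 4 panels, and EV_stiff replicate 1 is the lowest point of the miR-484 panel.

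miR-484 was counted far less often, with 21, 17 and 18 reads in EV_soft and 6, 14 and 14 reads in EV_stiff. After scaling it had 461, 419 and 269 CPM in EV_soft and 199.8, 503 and 505 CPM in EV_stiff. The lowest and the highest of the 6 libraries were both EV_stiff libraries, so EV_soft lay within the range of EV_stiff. The means were 383 ± 101 CPM in EV_soft and 403 ± 176 CPM in EV_stiff (SD, n = 3 each).

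The log2 fold change of miR-484 was 0.09 (SE 0.44) with an adjusted p of 0.917 in edgeR's quasi-likelihood test. Its 95% confidence interval, -0.90 to 1.08, held both 0 and the 0.75 of the summed miR-320 reads. Pooled over libraries, miR-484 was 56 of 151414 reads in EV_soft, or 370 CPM (exact 95% binomial interval 279 to 480, without TMM scaling), and 34 of 89086 reads in EV_stiff, or 382 CPM (264 to 533), intervals that cover counting error only. Its read count was lower in each EV_stiff library than in each EV_soft library, and so was the total of miRNA reads. Without EV_stiff replicate 1 the log2 fold change was 0.40, and without EV_soft replicate 3 it was -0.14.

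Whether miR-484 moved with the family was tested through its ratio to the summed miR-320 reads in each library. miR-484 reads were 0.567%, 0.699% and 0.369% of the miR-320 reads in EV_soft and 0.166%, 0.486% and 0.388% in EV_stiff. EV_soft replicate 3 was below 2 of the EV_stiff libraries, so the groups overlapped. The log2 ratio was -7.53 ± 0.47 in EV_soft and -8.24 ± 0.78 in EV_stiff (SD, n = 3 each), a difference of -0.71 with an exact 90% interval of -2.002 to 0.41 (exact two-sided permutation p = 0.3). The ratio was lower in EV_stiff in 7 of the 9 pairs of an EV_stiff and an EV_soft library. Without EV_stiff replicate 1, which had 6 miR-484 reads, the difference was -0.27. A separate course of miR-484 was therefore not shown beyond the spread of replicates, and a common course was not shown either.

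**Figure D3:**
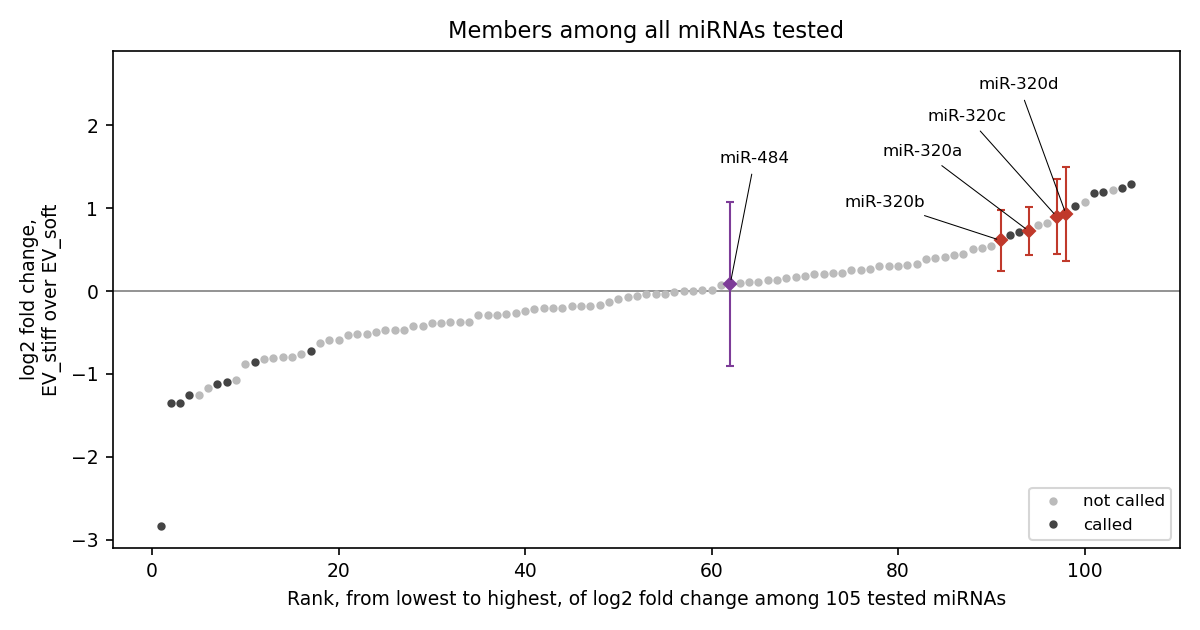
Log2 fold change, EV_stiff over EV_soft, of the 105 tested miRNAs in order from lowest to highest, with called miRNAs in dark grey and the members as diamonds with 95% confidence intervals. The 4 miR-320 members lie between 0.61 and 0.93 near the upper end, and miR-484 at 0.09 has the interval -0.90 to 1.08.

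Among the 105 tested miRNAs, the fold changes of miR-320d, miR-320c, miR-320a and miR-320b ranked 8, 9, 12 and 15 from the highest and that of miR-484 ranked 44. By mean level miR-320a ranked 3, miR-320b 26, miR-320c 39, miR-320d 72 and miR-484 101. The SE of miR-484, 0.44, was above the median SE of all tested miRNAs, 0.26.

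The pattern over the 6 libraries was compared between miRNAs by the root mean square difference of centred log2 CPM, which is a description with no test. Centring was over all 6 libraries, so the difference between the groups enters this measure. Like fold changes among near miRNAs therefore come partly from the calculation. Of 104 other tested miRNAs, the one nearest to miR-320a was miR-320b at 0.107, and miR-320c and miR-320d ranked 5 and 6 at 0.169 and 0.199. How reads that fit several of these rows were counted is not given, so their likeness may not be that of separate miRNAs. The nearest miRNAs outside the family were miR-30a-3p at 0.132, miR-361-3p at 0.133 and miR-1246 at 0.162. Of these, miR-30a-3p was called (log2 fold change 0.71), whereas miR-361-3p at 0.82 had an adjusted p of 0.0647 in edgeR's quasi-likelihood test and miR-1246 at 0.53 was below the limit on size.

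miR-484 ranked 69 of 104 in likeness to miR-320a, with a difference of 0.604. The miRNAs nearest to miR-484 were miR-339-3p at 0.199, miR-99b-3p at 0.204 and miR-28-3p at 0.230, whose log2 fold changes were 0.07, 0.01 and 0.10. Counting error of a miRNA with 6 to 21 reads enters these values, as does its difference between the groups.

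Rows were searched for the seeds of the 5 members whose sequences are shown, which leaves out miR-320a. The seed of miR-320b to miR-320d was found in 1 other row, miR-4429, which had 4, 3 and 6 reads in EV_soft and 0, 2 and 4 reads in EV_stiff and was not tested. No other row had the seed of miR-320e or of miR-484. A RefSeq sequence was matched for 406 of the 471 rows and 98 of the 105 tested, and the remaining rows were not searched.

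The other miRNAs listed here as by-passing a step of the usual route, certain mirtrons and miR-451a, had few reads in these EVs. Only this list was searched, so miRNAs of such an origin outside it are not covered. Mirtrons, whose hairpin is a spliced intron and needs no cut by Drosha, were listed for 7 hairpins, of which 4 rows had reads. miR-877-5p had 2, 4 and 1 reads in EV_soft and 4, 8 and 6 reads in EV_stiff, 7 against 18 in all. Its level was 43.9, 98.6 and 14.9 CPM in EV_soft and 133, 288 and 216 CPM in EV_stiff, so the groups did not overlap, at levels near that of 3 counts. It did not pass the filter, and in a fit of all 464 rows with reads its log2 fold change was 1.99 (SE 1.00) with an adjusted p of 0.425 in edgeR's quasi-likelihood test. miR-1226-3p, miR-1224-5p and miR-1238-3p had 1 read each. miR-451a, which is cut by Drosha but by Argonaute in place of Dicer, had 4, 8 and 0 reads in EV_soft and 3, 8 and 1 reads in EV_stiff, and was also not tested. None of these 5 rows could be called, so whether the origin of a miRNA went with its level in EV_stiff was not shown from this list.

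**Figure D4:**
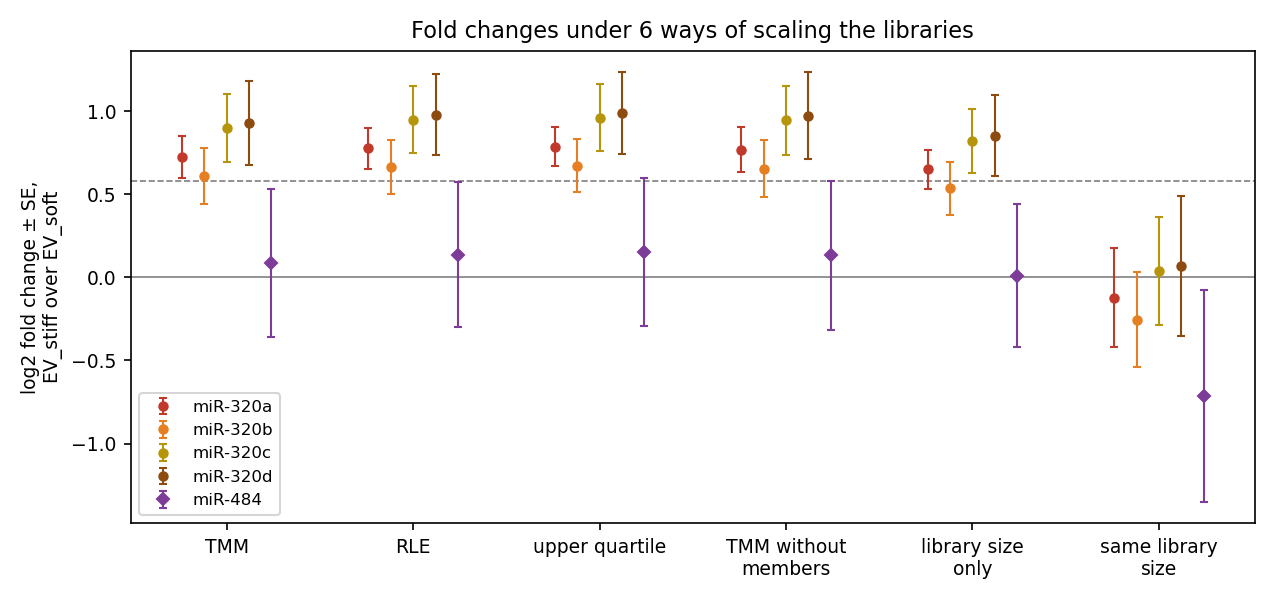
Log2 fold change ± SE, EV_stiff over EV_soft, of the 5 tested members under 6 ways of scaling the libraries, with a dashed line at the limit of 0.58. miR-320a to miR-320d lie between 0.54 and 0.99 in the first 5 and near 0 or below when all libraries are given the same size, where miR-320a is at -0.12 and miR-320b at -0.25.

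The direction of miR-320a and miR-320b turned only when all libraries were given the same size, so that reads were compared as counted. The log2 fold changes were then -0.12 for miR-320a, -0.25 for miR-320b, 0.039 for miR-320c, 0.066 for miR-320d and -0.71 for miR-484. The median of all tested miRNAs was then -0.89, a shift of -0.85. Relative to that median, miR-320a was at 0.77, miR-320b at 0.63, miR-320c at 0.93, miR-320d at 0.95 and miR-484 at 0.17, against 0.76, 0.65, 0.94, 0.97 and 0.13 with TMM. A change of scaling moves all log2 fold changes by about the same amount, so this likeness comes from the calculation and is not a test. The higher level of miR-320 in EV_stiff is stated only relative to other miRNAs. Total miRNA per EV or per cell was not measured, so more miR-320 and less of the other miRNAs cannot be told apart.

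miR-320a takes up to 10.8% of a library and could itself move the scaling. With TMM factors computed without the 6 members, the log2 fold changes were 0.77 for miR-320a, 0.65 for miR-320b, 0.94 for miR-320c, 0.97 for miR-320d and 0.13 for miR-484. With every library thinned to the smallest total, they were 0.70 for miR-320a, 0.59 for miR-320b, 0.87 for miR-320c, 0.96 for miR-320d and 0.01 for miR-484, and the 4 miR-320 members were called in both cases.

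The loci of the members lie apart in the genome, from GENCODE 44 on GRCh38. MIR484 lies within an exon of NDE1 on the same strand on chromosome 16, 27 nt from an annotated NDE1 transcript start, and 140 nt from a start of MARF1 on the opposite strand. MIR320A, at chr8:22244962-22245043 on the minus strand, has no gene around it and lies 90 nt from a start of POLR3D on the opposite strand. MIR320E lies in an intron of PRKD2 on chromosome 19 and MIR320B2 in an intron of NVL on chromosome 1, each on the strand of its host gene. MIR320C1 and MIR320C2, both on chromosome 18, lie in introns of ABHD3 and OSBPL1A but on the opposite strand. MIR320B1 on chromosome 1, MIR320D1 on chromosome 13 and MIR320D2 on chromosome X lie in no annotated gene. For MIR320B1 and MIR320D1 the nearest annotated start on the same strand was 22363 nt away (LINC02868) and 21738 nt away (MRPS31).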

How the data were processed

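Small RNA of EVs from 3 EV_soft and 3 EV_stiff samples was sequenced by the authors from inserts of 16 to 27 nt. Groups and replicate numbers were taken from the sample labels. The authors checked read quality with exceRpt, counted reads over RefSeq features, and deposited the raw counts per miRNA; the submitters' processing notes name hg38. The aligner, the handling of reads that fit several miRNAs and any removal of duplicate reads are not given in the sources used here.

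Counts were fitted in R 4.3.3 with edgeR 4.0.16 (filterByExpr, TMM, glmQLFit and glmQLFTest, Benjamini-Hochberg adjustment over the 105 miRNAs tested), with no replicate block. Calls needed a log2 fold change over 0.58 in size with adjusted p no higher than 0.05. Ratios used a pseudocount of 0.5 and an exact two-sided permutation test, and the 90% interval is the range of the 9 differences between libraries. CPM patterns used a prior count of 2. Binomial intervals are Clopper-Pearson. No 2 libraries were alike within sampling noise (chi-square per degree of freedom at least 3.40). The fit was tested on simulated data.

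The members, the marker lists and the list of miRNAs that by-pass Drosha or Dicer were chosen with earlier results of these data known. The miRNAs named are the members, rows with a member's seed, that list, the markers and the 3 miRNAs nearest to miR-320a and to miR-484. Alternatives were other scalings, filters and tests (DESeq2 1.42.0, limma 3.58.1 with voom), thinning (25 draws), miRNAs or libraries left out, and a replicate block. Sequences are from RefSeq (GRCh38.p14), which was matched for 5 of the 6 members, and positions from GENCODE 44.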

Additional observations from a re-analysis of the deposited data

How the results depend on the processing

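Of 19 alternatives, 18 left direction and call in place for miR-320a, miR-320c and the summed miR-320 reads, 12 for miR-320b and 13 for miR-320d. With the same size for all libraries 57 miRNAs were called, all lower, and log2 fold changes were -0.12 for miR-320a, -0.25 for miR-320b, 0.039 for miR-320c, 0.066 for miR-320d, -0.71 for miR-484 and -0.13 for the sum. The other alternatives called 13 to 27, against 19, with 27 from edgeR's likelihood ratio test; library size alone called 8 higher and 11 lower, against 11 and 8. miR-320b fell short of the call at 0.54 with library size alone, 0.54 without a filter (adjusted p = 0.0922) and 0.53 with a minimum of 10 counts in each library. miR-320d lost it without a filter, at 0.85 (adjusted p = 0.140). Leaving out 1 library gave 0.62 to 0.83 for miR-320a, 0.45 to 0.71 for miR-320b, 0.74 to 0.99 for miR-320c, 0.84 to 1.04 for miR-320d, 0.66 to 0.87 for the sum and -0.14 to 0.40 for miR-484, which was below 0 without EV_soft replicate 3 (-0.14), EV_stiff replicate 2 (-0.09) or EV_stiff replicate 3 (-0.10). The filter of 10 counts in each library removed miR-484. The within-library ratios kept their direction under every alternative, and with 1 library left out they ranged from -1.01 to -0.27 for miR-484 to miR-320, -0.17 to -0.03 for miR-320b to miR-320a, 0.08 to 0.31 for miR-320c to miR-320a and 0.08 to 0.34 for miR-320d to miR-320a. No alternative was run for miR-320e other than the fit without a filter.

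The labels do not say whether samples that share a replicate number were paired. Their deviations correlated at -0.13, 0.13 and -0.03, against -0.13 to 0.20 for pairs with different numbers. Pairing was thus not shown, and these few correlations cannot exclude it. With replicate number as a block 16 miRNAs were called, miR-320d at 0.94 lost the call (adjusted p = 0.0514), and miR-320a at 0.73, miR-320b at 0.63, miR-320c at 0.90 and the sum at 0.75 kept it. The permutation tests of 3 libraries against 3 cannot reach 0.05.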
